A study of Homo sapiens with 8 samples.

Results

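The genes described are those of the proteasome and its helpers: every symbol of the form PSMA to PSMG followed by a number. That rule found 48 of the 40693 gene symbols in the deposited tables, and it used no measured value. Of the 48, 46 had enough counts to be tested in the hairpin libraries. PSMA8, a testis alpha subunit, had 0 counts in all 8 libraries, and PSMB11, the thymus beta subunit, had 0 to 3 counts in the hairpin libraries, 5 in SW620 and 0 in SW480.

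The proteasome is the cell's main machine for degrading proteins tagged with ubiquitin. Its 20S core is a barrel in which outer rings of alpha subunits (PSMA) gate inner rings of beta subunits (PSMB), and PSMB5, PSMB6 and PSMB7 carry the active sites. The 19S cap binds, unfolds and de-ubiquitinates substrates with a ring of ATPases (PSMC) and with non-ATPase subunits of the base and lid (PSMD), and other particles (PSME) open the core without ubiquitin. Under interferon the active subunits are replaced by PSMB8, PSMB9 and PSMB10, which form the immunoproteasome and favour peptides for MHC class I.

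RNA was sequenced from SW620 and SW480, established human colorectal adenocarcinoma lines that the labels place at Dukes' types C and B. The 4 groups were SW620 with a FOXA2 hairpin (shFOXA2, 3 libraries), SW620 with a control hairpin (shNC, 3 libraries), untreated SW620 (1 library) and untreated SW480 (1 library). FOXA2 is a forkhead factor that opens chromatin in endoderm and liver cells. Both hairpins were expressed from the U6 promoter of a lentiviral vector that also carries puromycin resistance and mCherry, in stable puromycin-selected populations, and the shFOXA2 titles carry the number of the first of 2 hairpins the labels list. The labels do not say that replicate libraries stem from separate cultures, so p-values measure only the spread between these libraries, which may be technical.

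Total counts per library were 7478411 to 12068790 in shFOXA2, 12133652 to 13076566 in shNC, 95935348 in SW620 and 72323506 in SW480. Replicate 1 of shFOXA2 and of shNC each stood apart from the other replicates of its group. FOXA2, the hairpin's target, was measured at 30.3, 29.3 and 22.2 CPM (counts scaled to library size) in shFOXA2 replicates 1 to 3, against 52.5, 49.0 and 51.9 CPM in shNC replicates 1 to 3. The 7 epithelial markers summed to between 6031 and 8749 CPM in every library; between the hairpins CDX2 (0.69), VIL1 (0.26) and KRT18 (0.11) were called higher in shFOXA2 and EPCAM and KRT19 lower (-0.13 each). Of 6 leukocyte markers, CD3E had 0 counts in the 6 hairpin libraries and PTPRC had 9 to 42, while LCP1, a plastin that SW620 cells make, gave most of the sum of 213 to 237 CPM in shFOXA2 and 210 to 231 CPM in shNC. The fibroblast marker COL1A2 had 0 counts in all 8 libraries, while COL1A1, at 2.99 to 6.27 CPM in shFOXA2 and 2.03 to 2.26 CPM in shNC, was called higher (1.06). Of the hepatocyte markers, TTR had 0 counts throughout, ALB was called lower at 0.901 to 1.49 CPM in shFOXA2 and 1.48 to 3.31 CPM in shNC (-1.04), and SERPINA1 held 141 to 5193 counts. The part of these markers in the results below was not tested.

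Proteasome genes took 0.553%, 0.571% and 0.562% of all counts in shFOXA2, against 0.579%, 0.595% and 0.594% in shNC. The groups did not overlap. Without PSMD7, whose fall is described next, the shares were 0.540%, 0.558% and 0.550% in shFOXA2 and 0.556%, 0.569% and 0.569% in shNC, and the groups then overlapped. In bulk RNA, fewer cells with a transcript and less of it per cell cannot be told apart.

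With the edgeR quasi-likelihood test, 21 of the 46 tested genes passed an adjusted p of 0.05 (45.7%), against 39.0% of all 16100 genes tested, so being called was common in this comparison. Higher calls numbered 6 (13.0%, against 19.2% of all genes) and lower calls 15 (32.6%, against 19.8%). With replicate 1 of both groups left out, a choice made after seeing the data, 18 of 46 were called by edgeR, 6 higher and 12 lower. Over all genes, 5781 of 16048 were called in that setting. PSMA1, PSMA6, PSMB8 and PSMD8 then lost their calls (adjusted p = 0.0566 to 0.257) and PSMC3 gained one. Groups did not overlap for 26 of 46 (56.5%, against 48.7% of all genes). Sizes were modest: over members the absolute log2 fold change had a median of 0.09, against 0.21 over all genes, and the median signed value was -0.02, against 0.01. Both a call and a change of at least 1.5-fold were found for 2 of 46, PSMD7 and PSMB9 (4.35%, against 9.70% of all genes).

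**Figure D1:**
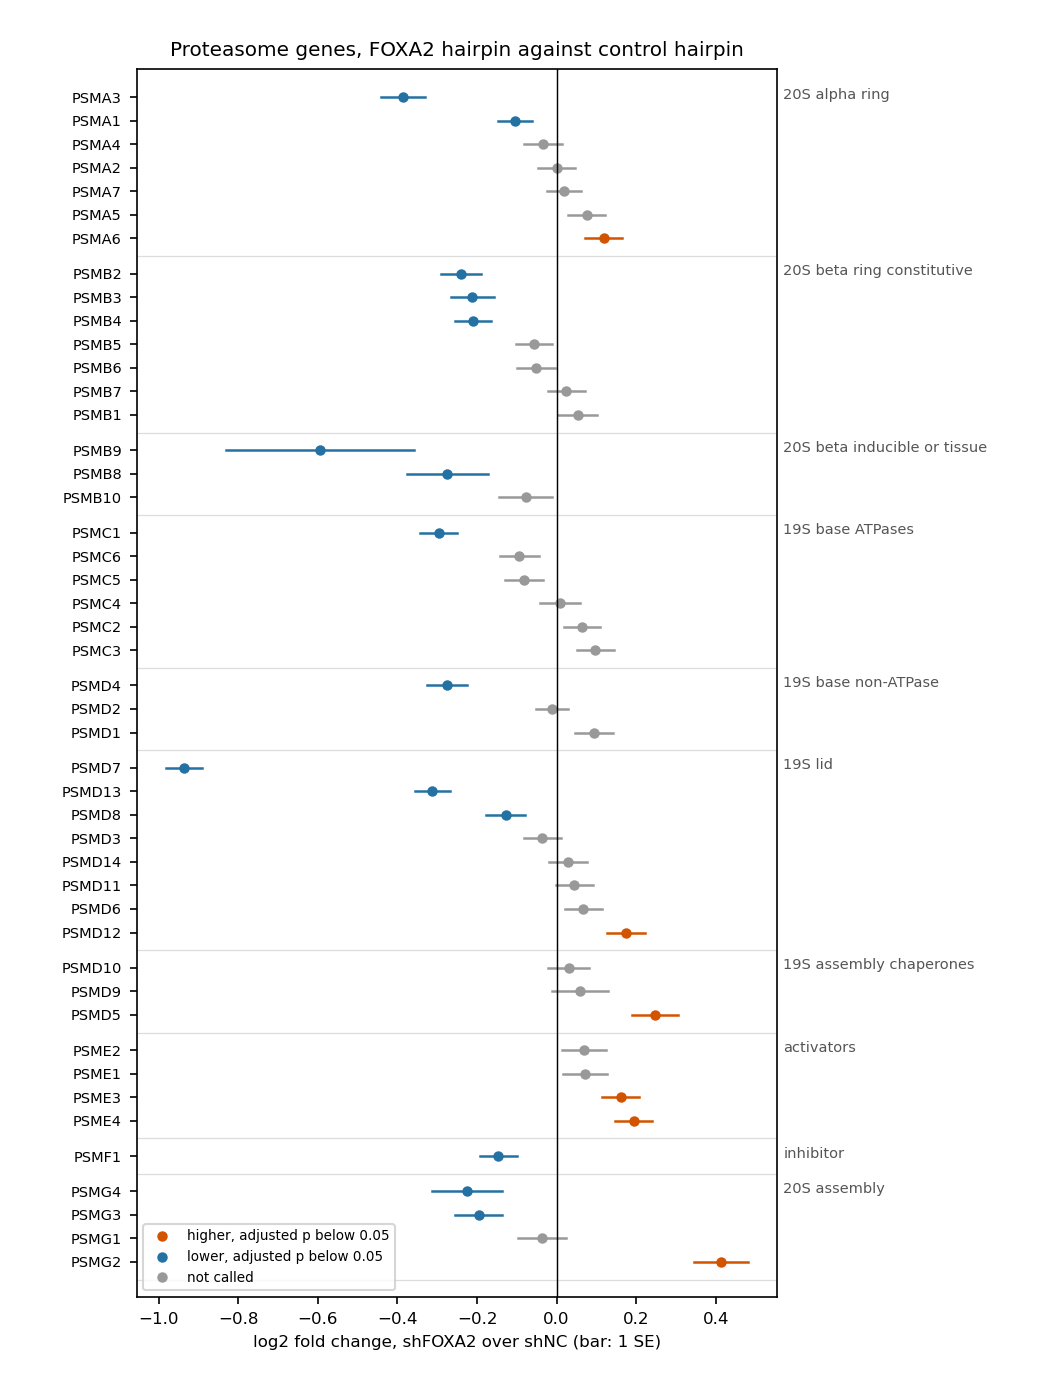
Log2 fold change, shFOXA2 over shNC (3 libraries each), of the 46 tested proteasome genes, grouped by role; bars are 1 SE and colours mark adjusted p below 0.05 in edgeR. PSMD7 stands at -0.94, and PSMG2, at 0.41, is the farthest to the right.

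PSMD7 changed most. It encodes the lid subunit Rpn8, the partner that holds the de-ubiquitinase PSMD14 in place. It was measured at 133, 134 and 125 CPM in shFOXA2 replicates 1 to 3, against 242, 258 and 250 CPM in shNC replicates 1 to 3. The groups lay far apart, and the log2 fold change was -0.94 ± 0.05 (SE, adjusted p = 1.15e-20), a level 1.92-fold lower in shFOXA2. By absolute fold change it stood at percentile 96.0 of all genes tested. Its partner PSMD14 differed by 0.03 ± 0.05 and was not called (adjusted p = 0.685).

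The other lid subunits did not move together. PSMD13 (Rpn9) was measured at 163, 172 and 168 CPM in shFOXA2, against 205, 211 and 208 CPM in shNC, and fell by 0.31 on the log2 scale (adjusted p = 1.48e-07). PSMD8 (Rpn12) was called lower at -0.13 although its groups overlapped, and the call was lost without shFOXA2 replicate 1 or 3 or shNC replicate 1 or 2 (adjusted p = 0.0752 to 0.141). PSMD12 (Rpn5) was called higher at 0.17 (adjusted p = 0.00255). PSMD3, PSMD6, PSMD11 and PSMD14 were not called, with log2 fold changes of -0.04 to 0.07. The median over the 8 lid genes was -0.0037.

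Base subunits were mixed as well. Of the 6 ATPases, PSMC1 (Rpt2), whose tail helps open the core gate, was the one called. It was measured at 102, 108 and 103 CPM in shFOXA2, against 126, 131 and 128 CPM in shNC, a log2 fold change of -0.30 ± 0.05 (adjusted p = 1.32e-06). The other 5 ATPases lay between -0.09 and 0.10, and PSMC3, at 0.10, was called when shFOXA2 replicate 1 was left out (0.13, adjusted p = 0.0296). PSMD4 (Rpn10), a ubiquitin receptor of the base, was measured at 106, 106 and 92.5 CPM in shFOXA2, against 121, 126 and 122 CPM in shNC. Its groups did not overlap and it fell by 0.27 on the log2 scale (adjusted p = 1.83e-05). The scaffold subunits PSMD1 and PSMD2 were not called at 0.09 and -0.01, and PSMD1 was called without shFOXA2 replicate 1 (0.13, adjusted p = 0.0488).

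Among the 7 alpha subunits measured, PSMA3 moved most. It had 61.1, 67.0 and 66.8 CPM in shFOXA2, against 87.7, 84.1 and 82.3 CPM in shNC, so that every shFOXA2 library lay below every shNC library (-0.39 ± 0.05, adjusted p = 1.98e-07). PSMA1 was called lower at -0.10 and PSMA6 higher at 0.12. Both calls were weak: PSMA1 lost its call without shFOXA2 replicate 1 or shNC replicate 2 or 3 (adjusted p = 0.0675 to 0.178), and PSMA6 lost its call without any shFOXA2 replicate and without shNC replicate 1 or 2 (adjusted p = 0.0926 to 0.275). PSMA2, PSMA4, PSMA5 and PSMA7 lay between -0.03 and 0.08 and were not called. PSMA1 and PSMA2 each have a second entry in the tables, and reads may be shared between the entries, so their levels are uncertain. The second PSMA1 entry held 1821, 1160 and 1609 counts in shFOXA2, beside 2661, 1716 and 2324 in the entry used.

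The structural beta subunits PSMB2, PSMB3 and PSMB4 were called lower, at -0.24, -0.21 and -0.21. The other structural subunit, PSMB1, was not called (0.05, adjusted p = 0.415), nor were the active-site subunits. PSMB2 was measured at 138, 137 and 152 CPM in shFOXA2, against 180, 166 and 158 CPM in shNC (adjusted p = 0.000194). PSMB5, the chymotrypsin-like subunit, had 110, 116 and 114 CPM in shFOXA2, against 120, 118 and 116 CPM in shNC. Its groups overlapped and its difference of -0.06 had a 95% interval of -0.15 to 0.03 (edgeR, adjusted p = 0.352).

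PSMB6, the caspase-like subunit, had 117, 120 and 113 CPM in shFOXA2, against 117, 125 and 121 CPM in shNC, a difference of -0.05 (95% interval -0.14 to 0.04, adjusted p = 0.41). PSMB7, the trypsin-like subunit, had 157, 150 and 160 CPM in shFOXA2, against 153, 148 and 159 CPM in shNC, a difference of 0.02 (95% interval -0.07 to 0.12, adjusted p = 0.719). For all 3 active-site subunits the groups overlapped.

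**Figure D2:**
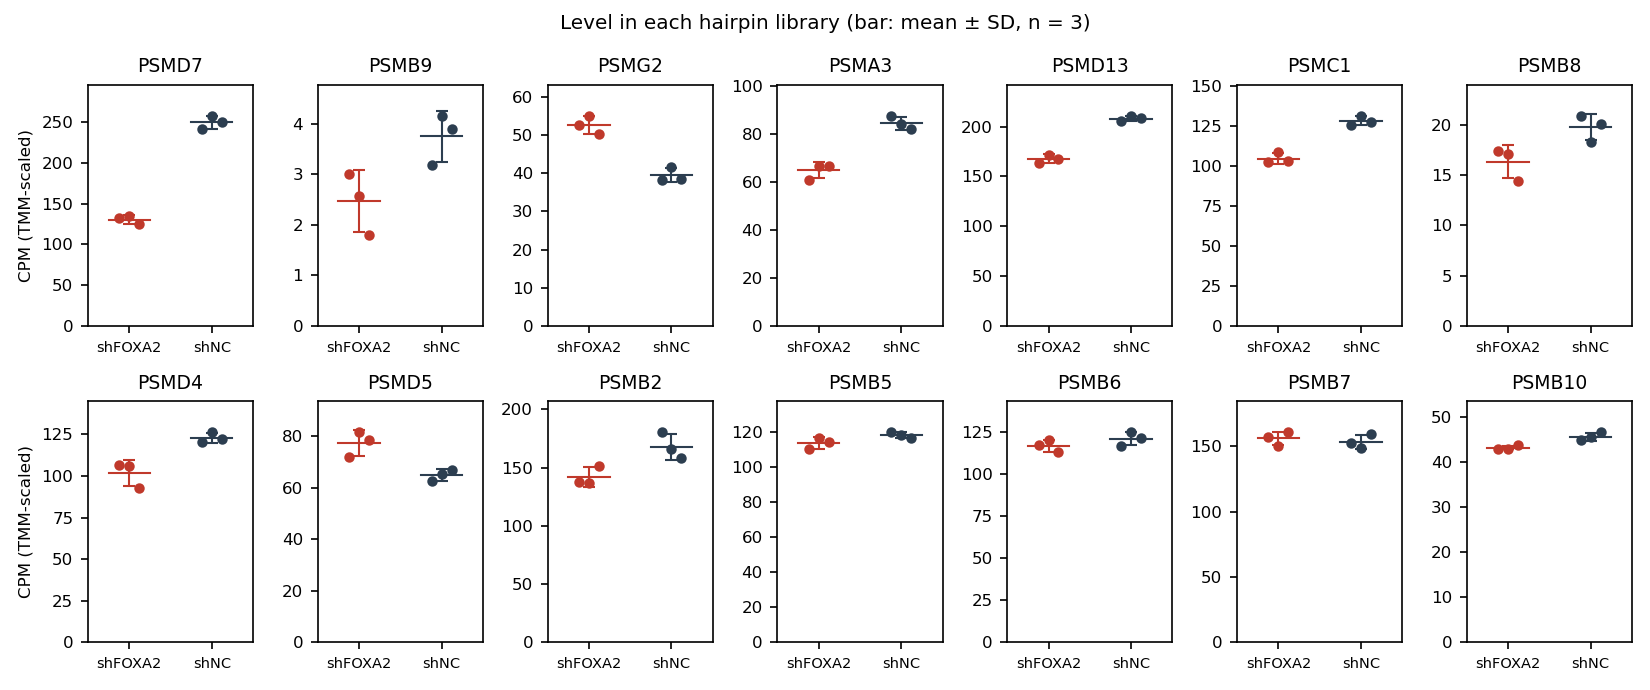
CPM after TMM scaling in each of the 3 shFOXA2 and 3 shNC libraries, for the 10 called proteasome genes with the largest absolute log2 fold changes and for PSMB5, PSMB6, PSMB7 and PSMB10; each point is a library and bars are the mean ± SD. PSMD7 spans 125 to 134 CPM in shFOXA2 and 242 to 258 CPM in shNC, while the points of PSMB5, PSMB6 and PSMB7 overlap.

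All 3 immunoproteasome subunits had groups that did not overlap, lower in shFOXA2, and 2 of them were called lower. Of all 16100 genes, 3945 had groups that did not overlap, lower in shFOXA2, and 3185 (19.8%) were called lower. PSMB9, which replaces PSMB6, was scarce: 36, 19 and 18 counts in shFOXA2 replicates 1 to 3, against 41, 54 and 48 counts in shNC. That is 3.01, 2.58 and 1.80 CPM in shFOXA2, against 3.19, 4.16 and 3.91 CPM in shNC, a log2 fold change of -0.59 ± 0.24 (adjusted p = 0.0423). The call was lost without shFOXA2 replicate 2 or 3 or shNC replicate 2 or 3 (adjusted p = 0.0698 to 0.228). With replicate 1 of both groups left out, PSMB9 was at -0.91 (adjusted p = 0.00847).

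PSMB8, which replaces PSMB5, was measured at 17.4, 17.1 and 14.4 CPM in shFOXA2, against 20.9, 18.3 and 20.02 CPM in shNC (-0.28 ± 0.10, adjusted p = 0.0288). Without shFOXA2 replicate 3 or shNC replicate 1 or 3 its adjusted p was 0.0778 to 0.172. PSMB10, which replaces PSMB7, had 43.1, 43.1 and 43.8 CPM in shFOXA2, against 44.9, 45.6 and 46.6 CPM in shNC. The libraries separated, yet the difference of -0.08 was not called (95% interval -0.21 to 0.05, adjusted p = 0.383).

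Of 12 genes that load peptides on MHC class I, 4 were called lower and 1 higher (19.8% and 19.2% of all genes). NLRC5, the class I transactivator, was at -0.52 with overlapping groups (adjusted p = 0.0259). TAP1, a subunit of the peptide transporter, was at -0.43 (adjusted p = 3.85e-05). HLA-C was at -0.34 (adjusted p = 5.45e-09) and the light chain B2M at -0.29 (adjusted p = 2.13e-05). The trimming peptidase ERAP1 was called higher at 0.24 (adjusted p = 0.0153). TAP2 and HLA-B were not called, at 0.20 and -0.09.

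Of the 6 genes called higher, 4 encode assembly chaperones or activators. Of the 4 genes of 20S assembly, 1 was called higher and 2 lower. Of the 3 chaperones of the 19S base 1 was called higher, and of the 4 activators 2, with 0 lower in either role. Over all genes, 19.2% were called higher and 19.8% lower. PSMG2, a chaperone that pairs with PSMG1 to build the alpha ring, was measured at 52.6, 55.0 and 50.4 CPM in shFOXA2, against 38.3, 41.6 and 38.5 CPM in shNC. Every shFOXA2 library lay above every shNC library (0.41 ± 0.07, adjusted p = 3.16e-06). PSMG1 was not called, at -0.04. Both genes of the other chaperone pair were called lower: PSMG3 was at -0.20 (adjusted p = 0.00739) and PSMG4 at -0.23 (adjusted p = 0.0385). PSMG3 lost its call without shNC replicate 2 (adjusted p = 0.0573) and PSMG4 without shFOXA2 replicate 3 or shNC replicate 3 (adjusted p = 0.180 to 0.196).

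PSMD5 (S5b), a chaperone of 19S base assembly, had 71.9, 81.5 and 78.7 CPM in shFOXA2, against 62.5, 65.6 and 66.9 CPM in shNC. It rose by 0.25 on the log2 scale (adjusted p = 0.000469), and the other base chaperones PSMD9 and PSMD10 were not called, at 0.06 and 0.03. Of the activators, PSME3 (PA28 gamma) was called higher at 0.16 (adjusted p = 0.00434) and PSME4 (PA200) at 0.19 (adjusted p = 0.000769). PSME1 and PSME2, the interferon-inducible PA28 pair, were at 0.07 each and not called. PSMF1 (PI31), named as an inhibitor of the core, was called lower at -0.15 (adjusted p = 0.0107), and leaving out shFOXA2 replicate 3 took its adjusted p to 0.0757.

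Of 11 tested partners of the particle that carry other symbols, 5 were called higher and 1 lower (19.2% and 19.8% of all genes). The thioredoxin-like subunit partner TXNL1 was at 0.26, AKIRIN2, which carries proteasomes into the nucleus, at 0.22 and the activator ZFAND5 at 0.20. The chaperone POMP, needed for maturation of the core, was at 0.19, and the de-ubiquitinase USP14 at 0.16. UBE3C, a ligase that extends ubiquitin chains on bound substrates, was at -0.29. Their adjusted p-values ran from 9.50e-07 for UBE3C to 0.0201 for AKIRIN2. The de-ubiquitinase UCHL5 had 60.6, 63.7 and 59.0 CPM in shFOXA2, against 134, 82.3 and 78.5 CPM in shNC. Replicate 1 of shNC stood high, the groups did not overlap, and the gene was not called (-0.69, adjusted p = 0.121).

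Among genes for ubiquitin and its delivery, RAD23B, a shuttle that brings substrates, was called higher at 0.15 (adjusted p = 0.00355), and the polyubiquitin gene UBB was called lower at -0.14 (adjusted p = 0.00859). Of 10 regulators, NFE2L1, the factor that raises proteasome genes when the particle is inhibited, was higher at 0.17 (adjusted p = 0.00164). The small MAF partners MAFK and MAFG and the NRF2 inhibitor KEAP1 were called lower, at -0.19, -0.14 and -0.15, with overlapping groups for MAFK. The other small MAF, MAFF, lay higher in every shFOXA2 library but was not called (0.33, adjusted p = 0.0569).

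Sequences are shown for PSMD7 and PSMA4 because they are the members with AACACGT or ACACGTA, 7-base stretches of the FOXA2 hairpin's target, in an annotated 3′ UTR. These stretches came from an earlier ranking of 7-base sequences in the same libraries. The target as the labels give it, in a gene on chromosome 20, has bases 11 to 18 in capitals. In the UTR sites below it, from GENCODE v29 on GRCh38, plus strand, 5′ to 3′, capitals mark the bases shared without a gap.
FOXA2 hairpin 1 target: gaacggcatgAACACGTAcat
PSMD7 3′ UTR, chr16:74306134-74306161: gttctctggtAACACGTAgagttcagac
PSMA4 3′ UTR, chr15:78549342-78549371: tggtttgagaATGAACACGTgagctgaaca
UBE3C 3′ UTR, chr7:157267961-157267987: aacttaaaatAACACGTtatgtgccat
The PSMD7 site shares 8 bases with the target and lies in 1 of its 3 basic protein-coding transcripts. The PSMA4 site shares 10 bases, in 1 of 7 transcripts, and PSMA4 was not called at -0.03. UBE3C, the partner called lower, shares 7 bases in 1 of 3 transcripts. UBE3C was the only partner whose sites were listed, and its call was known when it was picked. This match therefore has no share among partners beside it and is not a parallel to the PSMD7 site. Other stretches of the target were also found in members' 3′ UTRs. PSMD12, called higher, shares 8 bases, as many as the PSMD7 site. PSMD11 and PSMG1 (not called), PSME3 (called higher) and PSMF1, PSMG3 and PSMG4 (called lower) share 7.

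With 2 of 45 members searched, the share holding a stretch was 4.44%, against 5.71% of 13020 genes searched. Of all genes searched, 37.6% with a stretch were called lower, against 20.7% without. Their median log2 fold changes were -0.09 and 0.02. Because the stretches were ranked in these same libraries, that difference is no separate test. Called lower without either stretch in an annotated 3′ UTR were 14 other members, of which PSMB3 had no match in that annotation. The part of the stretches in the level of PSMD7 or of other genes was not tested.

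SW620 and SW480 had 1 library each, so their comparison has no test. Of 46 members that reached 20 counts in either library, 37 had a lower scaled level in SW620 than in SW480 and 9 a higher one. The median log2 ratio, with 1 CPM added to each level, was -0.25, against 0.02 over 21343 genes. Members took 0.447% of counts in SW620 and 0.529% in SW480. At least 1.5-fold apart were 14 of 46 (30.4%, against 34.2% of all genes). Of these 14, 2 were higher in SW620 (4.35%, against 16.5%) and 12 lower (26.1%, against 17.7%).

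**Figure D3:**
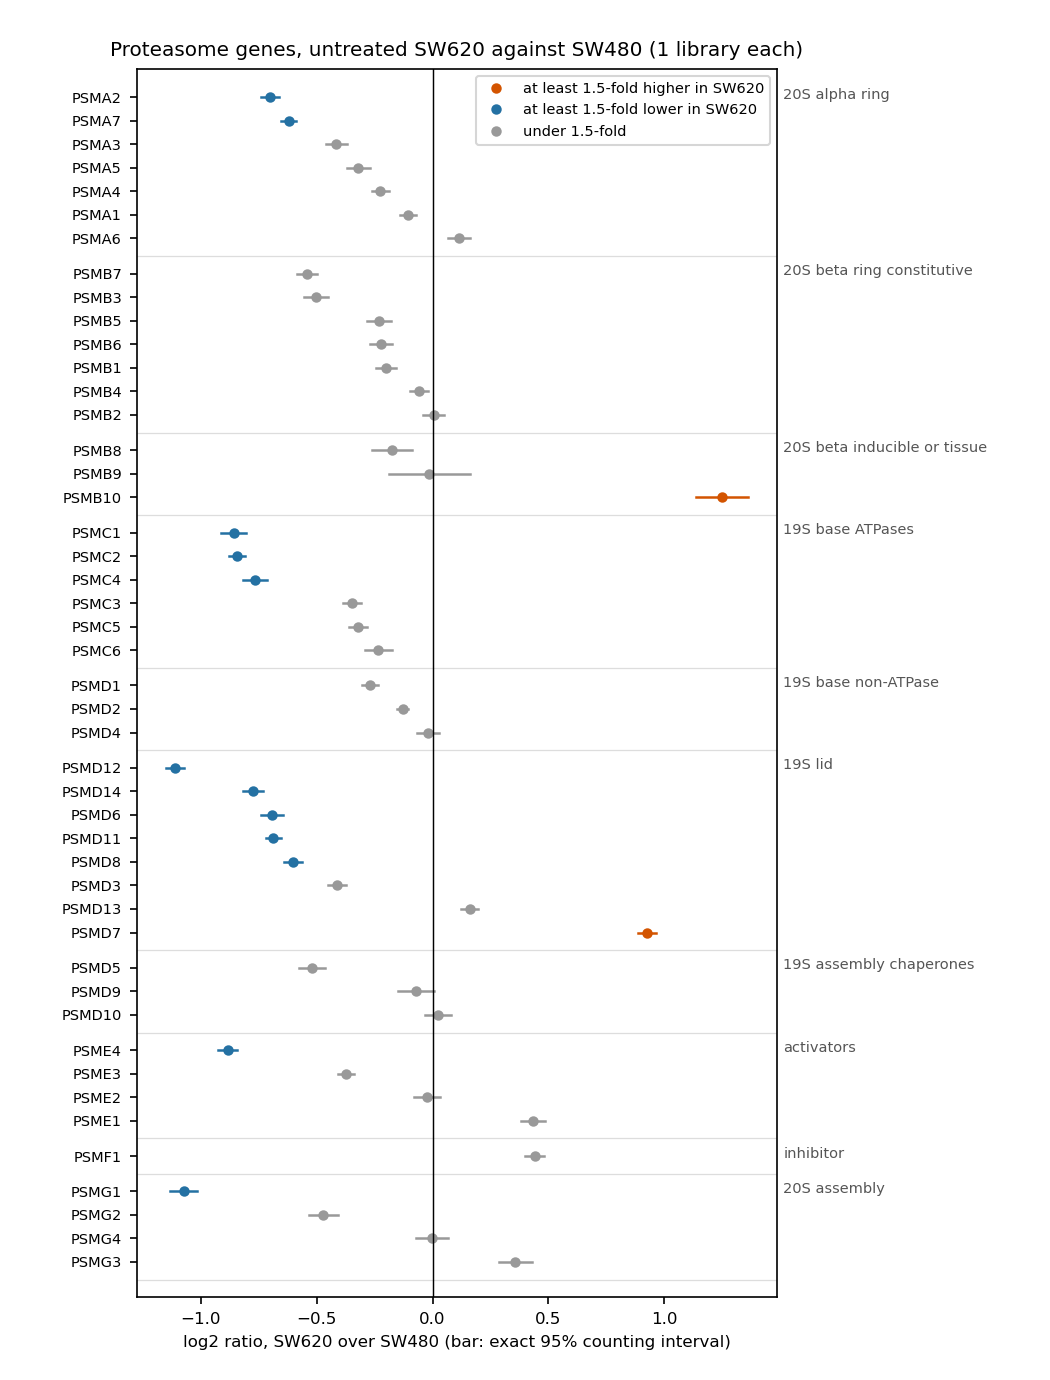
Log2 ratio of scaled CPM, SW620 over SW480 (1 library each), of the same 46 genes by role; bars are exact 95% counting intervals and colours mark genes at least 1.5-fold apart. Most points lie left of 0, with PSMB10 (2.37-fold) and PSMD7 (1.90-fold) to the right.

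Among the roles, the lid and the ATPases had the lowest median log2 ratios, -0.64 and -0.55. All 6 ATPases were lower in SW620, and PSMC1, PSMC2 and PSMC4 passed 1.5-fold. PSMC1 had 5081 counts (52.1 CPM) in SW620 and 6675 counts (94.4 CPM) in SW480. Of the 8 lid genes, 5 passed 1.5-fold lower. PSMD12 was farthest, with 8266 counts in SW620 and 12949 in SW480, a scaled level 2.16-fold lower in SW620 (exact 95% counting interval 2.10 to 2.22). PSMD14, the de-ubiquitinase, was 1.71-fold lower (1.66 to 1.76), and PSMD6, PSMD11 and PSMD8 were 1.61-, 1.61- and 1.52-fold lower.

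PSMD7 ran the other way in the lid. It had 19846 counts in SW620 and 7581 in SW480, a level 1.90-fold higher in SW620 (1.85 to 1.95). The other lid gene above 0 was PSMD13, at 1.12-fold. The intervals cover counting error only, and difference between cultures was not measured.

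In the core, the median log2 ratio was -0.32 over the alpha subunits and -0.22 over the constitutive beta subunits, and PSMA2 and PSMA7 passed 1.5-fold, at 1.62- and 1.54-fold lower in SW620. PSMB5, PSMB6 and PSMB7 were 1.17-, 1.17- and 1.46-fold lower. PSMB10 had 2762 counts in SW620 and 843 in SW480, 2.37-fold higher in SW620 (2.20 to 2.57). The other immunoproteasome subunits did not follow: PSMB8 was 1.13-fold lower in SW620 (1.07 to 1.197) and PSMB9 was at 0.99 of the SW480 level (0.88 to 1.12). CD3E, a lymphocyte marker, had 1 count in SW620 and 20 in SW480, and the 6 leukocyte markers summed to 221 CPM in SW620, nearly all from LCP1, and 2.23 CPM in SW480. Their part in the PSMB10 ratio was not tested.

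Among assembly genes and activators, PSMG1 was 2.10-fold lower in SW620 (2.02 to 2.19) and PSME4 1.84-fold lower (1.79 to 1.90). PSMF1, PSME1 and PSMG3 were higher in SW620, at 1.36-, 1.35- and 1.28-fold. Of the 11 partners, 7 were at least 1.5-fold lower in SW620 and none higher (17.7% and 16.5% of all genes), with a median log2 ratio of -0.62. POMP had 4948 counts in SW620 and 9717 in SW480, 2.71-fold lower (2.62 to 2.80), and AKIRIN2 was 2.12-fold lower. Of the regulators, NFE2L3, a relative of NFE2L1, had 7147 counts in SW620 and 26277 in SW480 (5.07-fold lower), NFE2L2 was 2.12-fold lower and NFE2L1 1.16-fold lower.

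**Figure D4:**
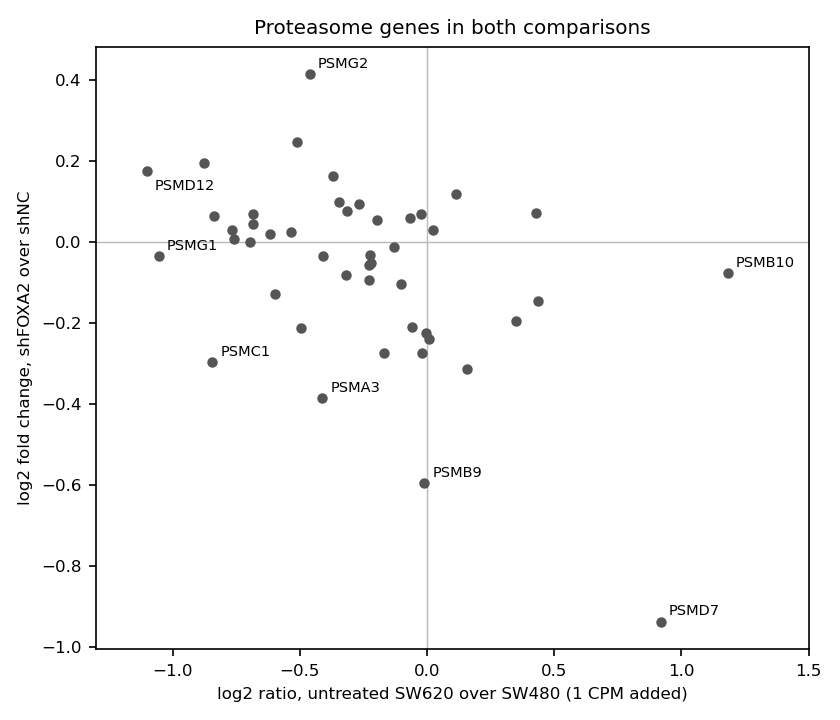
Log2 ratio, SW620 over SW480 with 1 CPM added (1 library each), against log2 fold change, shFOXA2 over shNC (3 libraries each), for 46 proteasome genes; each point is a gene. PSMD7 stands alone at the lower right, at 0.92 on the horizontal and -0.94 on the vertical axis.

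Side by side, PSMD7 was 1.90-fold higher in SW620 than in SW480 and 1.92-fold lower in shFOXA2 than in shNC. PSMB10 was 2.37-fold higher in SW620 and differed by -0.08 on the log2 scale in shFOXA2. PSMD12 was 2.16-fold lower in SW620 and called higher at 0.17 in shFOXA2. PSMC1 was 1.81-fold lower in SW620 and also lower in shFOXA2, at -0.30. FOXA2 itself had 7882 counts in SW620 and 319 in SW480, a scaled level 17.9-fold higher in SW620 (16.0 to 20.1). Its part in the levels of PSMD7 or the other genes was not tested.

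Levels per length are the authors' RPKM values. PSMA7 was highest of the 46 genes in all 4 groups, at 156 ± 3.68 in shFOXA2 and 155 ± 2.85 in shNC (SD, n = 3 each), 91.9 in SW620 and 136 in SW480. PSMD7 ranked 12 in shFOXA2 at 47.2 ± 1.62 RPKM, against rank 3 in shNC at 91.3 ± 4.01 RPKM. It ranked 2 in SW620 and 16 in SW480. PSMD7 was still the highest of the lid genes in shFOXA2, next to PSMD8 at 42.1 ± 1.89 RPKM.

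The active-site subunits exceeded their immunoproteasome replacements in every group. PSMB6 stood at 81.4 RPKM in shFOXA2 and 85.1 RPKM in shNC, and its replacement PSMB9 at 0.794 RPKM in shFOXA2 and 1.22 RPKM in shNC, the lowest of the 46. PSMB5 stood at 63.8 RPKM in shFOXA2 and 66.9 RPKM in shNC, and PSMB8 at 8.05 RPKM in shFOXA2 and 9.83 RPKM in shNC. PSMB7 stood at 71.8 RPKM in shFOXA2 and 71.3 RPKM in shNC, and PSMB10 at 23.2 RPKM in shFOXA2 and 24.7 RPKM in shNC. PSMB10 had 15.5 RPKM in SW620 and 6.29 RPKM in SW480.

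**Figure D5:**
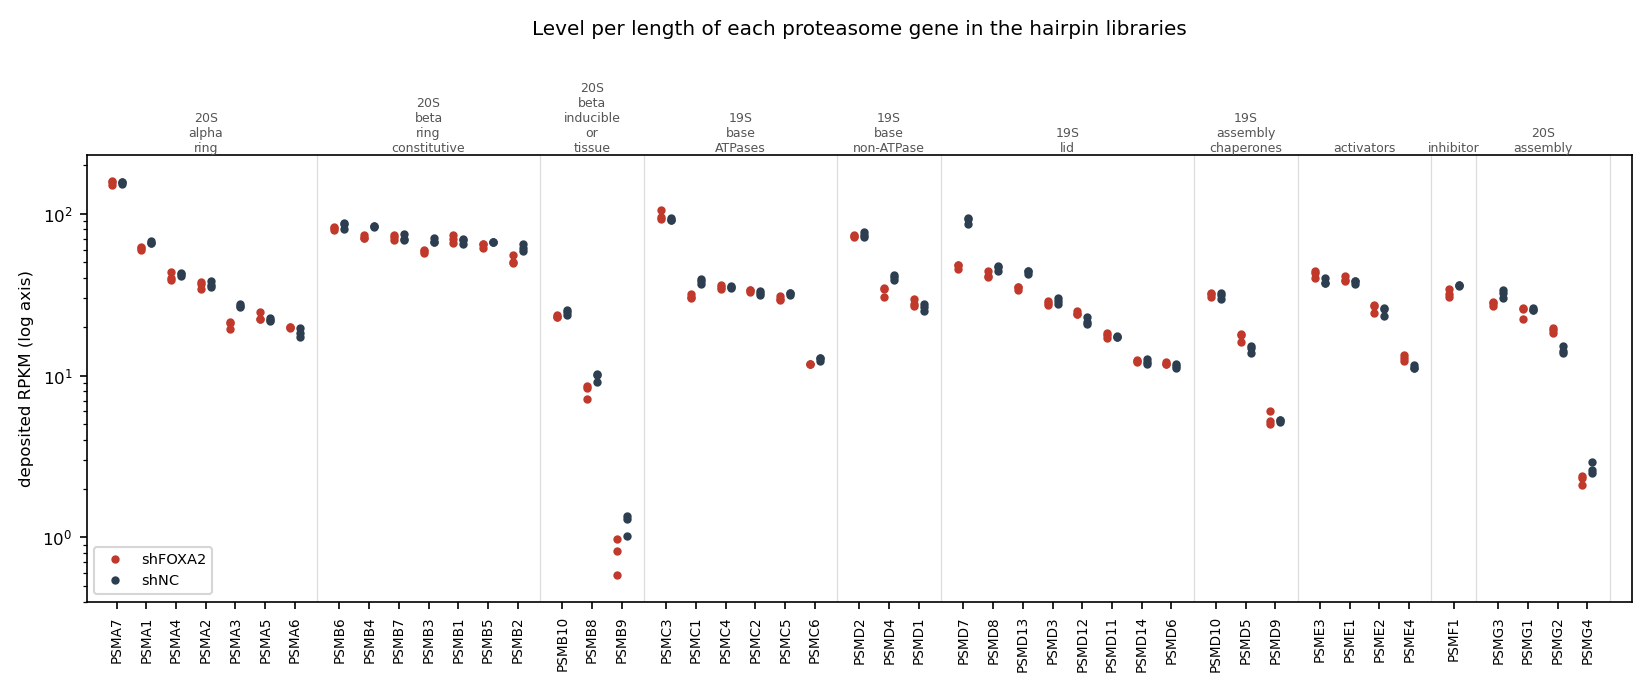
Deposited RPKM (log axis) of proteasome genes by role in the hairpin libraries; each point is 1 of 3 shFOXA2 or 3 shNC libraries. PSMA7 lies near 155 RPKM and PSMB9 near 1, and PSMD7 is the gene whose 2 groups stand widest apart among those above 20 RPKM.

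Genes whose products stand in 1 ring at equal number did not have equal levels. In shNC the alpha genes spanned 8.41-fold, the ATPases 7.31-fold and the constitutive beta genes 1.37-fold. These spans rest on the lengths listed in the tables, which run to 10418 bases for PSMG4. With median lengths of GENCODE v29 transcripts, a choice made after the data were seen, they were 6.04-, 3.26- and 3.88-fold, the last over 6 genes.

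Promoters were read from a RefSeq table on GRCh38.p14 that holds 250 bases before and 50 after each start, in which 42 of the 48 members were found. The searched letters, on both strands, were TGACNNNGC and the looser TGANNNNGC, which contains it (cores of the antioxidant response element that NFE2L1 and NFE2L2 bind), CCAAT, and CCGGAAG (an ETS core). A gene with several starts was counted when any of its windows held a match. TGACNNNGC was found in 15 of 42 members (35.7%), against 16.1% of 27305 genes in the table, noncoding ones included. TGANNNNGC was found in 66.7% of members, against 47.1% of all. CCAAT was found in 47.6%, against 39.7%, and CCGGAAG in 35.7%, against 12.2%. By call, TGACNNNGC was found in 4 of 6 members higher in shFOXA2, 2 of 13 lower and 9 of 21 not called. The looser TGANNNNGC was found in 5 of 6, 8 of 13 and 13 of 21 in the same order, CCGGAAG in 3, 6 and 5, and CCAAT in 1, 6 and 12.

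The promoters of the largest fall, the largest rise and the scarcest of the tested subunits are shown, all from the plus strand and 5′ to 3′, with matches in capitals.
PSMD7, chr16:74296564-74296863: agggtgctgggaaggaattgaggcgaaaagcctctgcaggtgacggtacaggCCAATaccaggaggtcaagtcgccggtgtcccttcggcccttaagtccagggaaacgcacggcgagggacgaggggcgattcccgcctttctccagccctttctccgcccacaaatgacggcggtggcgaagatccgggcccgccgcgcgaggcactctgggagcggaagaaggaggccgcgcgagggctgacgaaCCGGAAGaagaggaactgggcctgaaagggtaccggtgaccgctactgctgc
PSMG2, first start, chr18:12658488-12658787: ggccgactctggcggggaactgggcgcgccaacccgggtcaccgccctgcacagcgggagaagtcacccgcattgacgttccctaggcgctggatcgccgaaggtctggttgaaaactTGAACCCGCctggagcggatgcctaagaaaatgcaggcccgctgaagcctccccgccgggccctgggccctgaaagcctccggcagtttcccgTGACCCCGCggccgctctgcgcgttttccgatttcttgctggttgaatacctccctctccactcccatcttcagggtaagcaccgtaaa
PSMB9, chr6:32853942-32854241: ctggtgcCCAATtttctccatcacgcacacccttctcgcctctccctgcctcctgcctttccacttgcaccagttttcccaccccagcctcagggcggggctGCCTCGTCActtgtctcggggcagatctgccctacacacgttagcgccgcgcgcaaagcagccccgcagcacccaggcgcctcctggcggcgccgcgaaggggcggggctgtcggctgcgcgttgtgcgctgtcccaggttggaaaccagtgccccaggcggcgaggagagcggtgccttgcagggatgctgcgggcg
The PSMD7 window holds 1 CCAAT and 1 CCGGAAG, and the PSMG2 window shown holds TGACCCCGC and TGAACCCGC. The window of the other PSMG2 start, chr18:12702792-12703091, holds 1 TGANNNNGC match and no TGACNNNGC. In the PSMB9 window, GCCTCGTCA is a TGACNNNGC match on the minus strand, beside 1 CCAAT. PSMB9 faces TAP1, whose nearer start in the table lies 488 bases away on the other strand, and both were called lower in shFOXA2. A match of letters is a description of the window, and binding was not measured.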

How the data were processed

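Each of the 8 deposited tables gives raw counts, a gene length in bases and RPKM per Ensembl gene entry. RPKM as deposited by the authors could be recomputed from count, length and table total, to a relative tolerance of 0.0001, for 100% of values above 20 counts. The submitters' processing notes name HOMER and hg19. Aligner, annotation and use of strand in counting: not given in the sources used here. Per the labels' protocols the library kit was directional. Where a symbol repeats, as 256 of 40693 do, the entry with the highest summed count was used.

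The deposited counts of the 6 hairpin libraries were fitted together with edgeR 4.0.16 (R 4.3.3): TMM scaling, the default expression filter, a robust quasi-likelihood test, two-sided, with Benjamini-Hochberg adjustment over 16100 genes at 0.05. The biological coefficient of variation was 6.59%. Chi-square per degree of freedom between replicates was 3.98 to 4.61 for pairs with replicate 1 of either group and 1.66 to 1.75 for replicates 2 against 3, so spread exceeded counting noise and replicate 1 stood apart in both groups. The untreated lines were compared as TMM-scaled ratios with exact 95% Poisson intervals wherever either library reached 20 counts. A gene was called at 1.5-fold after adding 1 CPM. Intervals cover counting error only.

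Members and lists were chosen with earlier results of these data known. Every hairpin library's value is given for the 10 called members with the largest absolute fold changes and for the catalytic beta subunits; of other genes, FOXA2 and up to 4 called genes per list, by absolute fold change, were named. POMP, USP14, UCHL5, ERAP1, MAFF, TAP2, HLA-B, KRT18, SERPINA1, APOA1 and the genes of the lists named between the lines were chosen after their values were seen. Some genes of the lists are not reported here. Alternatives used DESeq2 1.42.0 and limma 3.58.1, and the fit was tested on simulated data. Motif searches and plots used Python 3.11.15.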

Additional observations from a re-analysis of the deposited data

How the results depend on the processing

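Of the 21 members called between the hairpins, 13 kept their call in all 15 alternatives (scaling, filter, test, threshold, repeated symbols, replicate block, each library left out): PSMA3, PSMB2, PSMB3, PSMB4, PSMC1, PSMD4, PSMD5, PSMD7, PSMD12, PSMD13, PSME3, PSME4 and PSMG2. Calls by setting numbered 20 with DESeq2 size factors or total counts, 19 with no filter and 21 with limma-voom. The DESeq2 Wald test gave 15, and an adjusted p of 0.01 gave 14, of which 9 were lower. Of all 16100 genes, 6276 were called with DESeq2 size factors, 6213 with total counts and 6248 with limma-voom. The Wald test called 4901 and the 0.01 threshold 4725, and 6196 of 28457 genes were called with no filter. With no filter the median was -0.064, over 47 members that then include PSMB11. Leaving out each hairpin library in turn gave 15 to 20 calls. Of these, 5 to 7 were higher and 10 to 14 lower, with medians of -0.04 to -0.01. Over all genes, the same settings called 5299 to 5872, of 16400 to 16467 tested. Replicate numbers did not pair the libraries (correlations of -0.00443, -0.0468 and -0.00511). With the replicate block 18 members were called, beside 6139 of all 16100 genes.

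Uncalled members near 0 changed sign. With each library left out in turn, log2 fold changes ran from -0.039 to 0.043 for PSMA2, -0.0074 to 0.032 for PSMA7, -0.0073 to 0.049 for PSMB7, -0.018 to 0.029 for PSMC4, -0.0081 to 0.049 for PSMD10, -0.034 to 0.0084 for PSMD2, -0.023 to 0.12 for PSMD9 and -0.079 to 0.021 for PSMG1. PSMA2 was also at 0.00082 (DESeq2 size factors), 0.00075 (a mean of 10 counts as filter), 0.00014 (Wald) and 0.0026 (entries summed), and PSMC4 at -0.0042 (total counts). With replicate 1 of each group left out, PSMA2 was at 0.048 and PSMD10 at -0.0050. With no filter, PSMA7 was at -0.011, PSMB7 at -0.0061, PSMC4 at -0.022, PSMD10 at -0.00062 and PSMD14 at -0.0020. The cause was not tested.

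Between the untreated lines, 3 of 46 members were at least 2-fold apart, 1 higher and 2 lower in SW620. Over all genes, 3601 of 21343 (16.9%) were at least 2-fold apart. Total counts gave a median of -0.19 over the members. Each line has 1 library, so culture-to-culture spread is unknown. In the hairpin libraries PSMB9 rested on 18 to 54 counts.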
